A study of Mus musculus with 12 samples.

Results

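The major milk genes were followed through basal and luminal cells of the mouse mammary gland in which the forkhead transcription factor Foxp1 was either floxed or conditionally deleted. The 10 genes, taken by symbol from the 27179 genes of the count table, were the caseins Csn1s1, Csn1s2a, Csn2 and Csn3, the whey protein genes Wap and Lalba, the secreted mucin-like Glycam1, the milk fat globule genes Btn1a1 and Xdh, and the thioesterase gene Olah. Of these, 9 had enough counts to be among the 14903 genes tested, and Wap did not. RNA was sequenced from 12 libraries of female mice. The groups were basal epithelial cells labelled Foxp1 knockout (MMTV-cre/Foxp1(fl/fl)), basal epithelial cells of Foxp1 controls (Foxp1(fl/fl)), luminal epithelial cells labelled Foxp1 knockout and luminal epithelial cells of controls, with 3 biological replicates each. Every mouse therefore carried floxed Foxp1 alleles, and the Cre transgene separated the genotypes, so that Cre itself and the deletion cannot be told apart. Cre is driven by the promoter of mouse mammary tumour virus, which is active in mammary epithelium and also in other secretory glands such as the salivary gland. No label gives age, reproductive stage or the animal behind each replicate, so the p-values measure the spread between these libraries.

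Caseins are the main proteins of milk. The alpha and beta caseins, encoded by Csn1s1, Csn1s2a and Csn2, bind calcium phosphate in the casein micelle, and kappa-casein, encoded by Csn3, stabilises its surface. During pregnancy and lactation prolactin acts through its receptor, the kinase Jak2 and the transcription factor Stat5 to raise casein and whey protein transcription in luminal alveolar cells, together with the glucocorticoid receptor and the ETS factor Elf5. Basal cells are mostly contractile myoepithelium and do not secrete milk.

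The sequences before the casein genes are shown because the results turn on Csn1s1 and Csn2, which sit next to each other. RefSeq promoter sequences of GRCm38.p6, the assembly also called mm10, were matched by gene number for 7 of the 10 genes, not including Csn3, Btn1a1 and Xdh. The 250 bases before each start were searched on both strands for TTCNNNGAA, the core recognised by STAT factors, which reads the same on both strands. Capitals mark the match.
Csn1s1, chr5:87665958-87666207, + strand: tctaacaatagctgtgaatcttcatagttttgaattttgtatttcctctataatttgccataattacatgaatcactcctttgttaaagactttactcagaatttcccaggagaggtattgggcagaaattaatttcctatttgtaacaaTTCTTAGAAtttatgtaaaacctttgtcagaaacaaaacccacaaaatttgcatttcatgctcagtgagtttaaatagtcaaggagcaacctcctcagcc
Csn2, chr5:87699426-87699675, - strand: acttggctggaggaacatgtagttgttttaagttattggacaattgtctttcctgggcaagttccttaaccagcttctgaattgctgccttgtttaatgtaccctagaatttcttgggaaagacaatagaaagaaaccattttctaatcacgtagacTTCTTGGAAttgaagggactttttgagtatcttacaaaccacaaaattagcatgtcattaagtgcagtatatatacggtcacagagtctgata
Both caseins held 1 match at nearly the same distance, from base -100 to -92 before the start of Csn1s1 and from -93 to -85 before that of Csn2. Glycam1 was the third gene with a match, from base -145 to -137. Csn1s2a held none before its RefSeq start, but the letters lay 21 bases after it, which is 97 bases before the start that the GENCODE annotation gives for this gene. For Csn2 the annotations also differed, since the GENCODE start lies 205 bases upstream of the RefSeq start and so places the match inside the gene. The stretches of 30 bases around the matches of Csn1s2a and Glycam1 were the following.
Csn1s2a, chr5:87774460-87774489, + strand: ttatagtgctTTCTTAGAAttacaatgact
Glycam1, chr15:103565207-103565236, - strand: gccaactcatTTCCCAGAAacaccaattcc
Of 32851 promoters in the same table, 7.02% held TTCNNNGAA in the 250 bases before the start. None of the 7 milk gene promoters held the forkhead core TGTTTAC (3.17% of all promoters), TATAAA (12.4%), the NF1 palindrome (0.0365%), the C/EBP palindrome TTGCGCAA (0.164%) or the full glucocorticoid receptor palindrome (0.00913%). A match describes these letters and does not show binding, and the absence of one covers only this window.

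Library depth was 9769361 to 11133908 counts, apart from 15449513 in luminal knockout-labelled replicate 3. All 10 basal markers were called lower and all 12 luminal markers higher in luminal than in basal controls, where 16.8% and 16.3% of all genes tested were. Foxp1 itself had 161.0, 149.8 and 155 CPM (counts scaled to the size of the library) in luminal knockout-labelled libraries, against 82.3, 62.0 and 78.2 CPM in luminal controls. In basal cells Foxp1 had 212, 193 and 284 CPM in knockout-labelled libraries, against 221, 213 and 159.7 CPM in controls. The gene count includes exons outside the deleted part, so it checks the genotype labels only in part, and the libraries are called knockout-labelled for that reason. Salivary gland transcripts were present in every group, with Bpifa2 taking 0.636% to 6.70% of the counts of each luminal library. The summed salivary marker level overlapped between luminal knockout-labelled (23929 to 95225 CPM) and control libraries (11512 to 123908 CPM). Single salivary markers differed in both directions, and 6 of the 13 tested were called between the luminal groups by edgeR. Of all genes tested, 2.21% were called higher and 0.819% lower there. Smr3a had 6.41 to 30.8 CPM in luminal knockout-labelled libraries, against 2247 to 22927 CPM in luminal controls. Scgb2b27 had 645 to 4649 CPM in luminal knockout-labelled libraries, against 49.8 to 201 CPM in luminal controls.

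**Figure D1:**
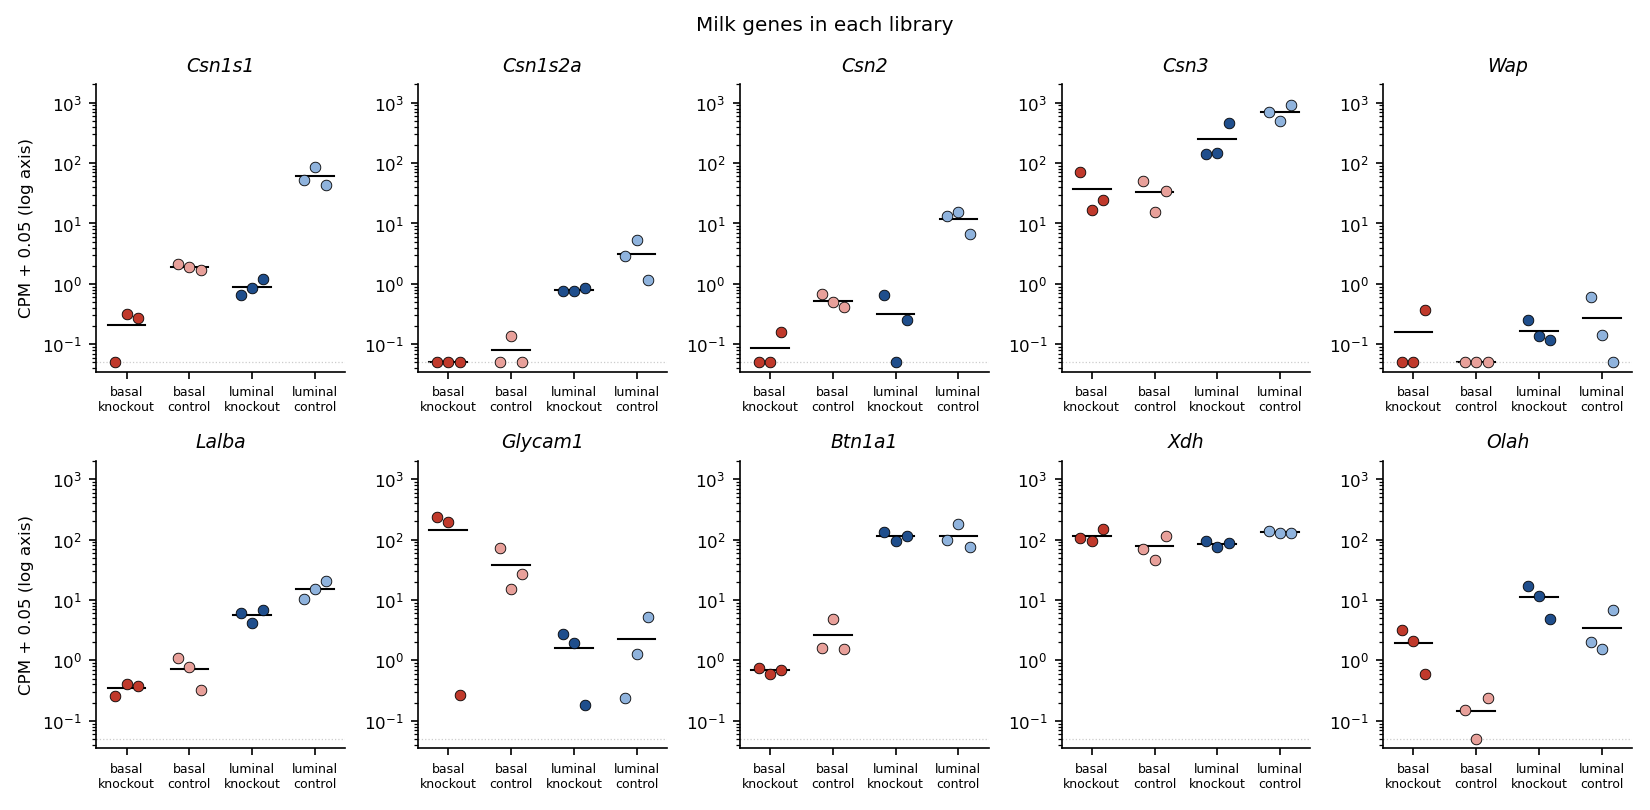
CPM plus 0.05 of the 10 milk genes on a log axis in each of the 12 libraries, with 1 point per library, a line at the group mean and the dotted line at 0 counts. In luminal cells the 3 knockout-labelled points of Csn1s1 lie at 0.598 to 1.13 CPM and the 3 control points at 42.6 to 85.4 CPM, whereas the luminal points of Btn1a1 overlap, at 96.1 to 135 CPM and 75.5 to 178 CPM.

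In luminal cells, the knockout-labelled libraries had almost no Csn1s1 and Csn2 RNA, while the levels of the milk fat globule gene Btn1a1 overlapped with those of the controls. Csn1s1 and Csn2 fell by 68.8-fold and 44.4-fold. By edgeR's quasi-likelihood test with Benjamini-Hochberg adjustment over all genes, 2 of the 9 genes were called lower at an adjusted p under 0.05 and 0 higher, where 0.819% of all genes tested were called lower and 2.21% higher. Csn2, 1 of these 2, had enough counts to be tested only through the luminal controls. Without a filter on low counts Csn2 stayed called (adjusted p = 0.002688 by edgeR). In bulk RNA of this kind, fewer cells of a type and less RNA per cell cannot be told apart. The statements that follow are ordered by the role of each gene.

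Csn1s1, the alpha-S1 casein (chromosome 5, 87666208 to 87682578), had 0.598, 0.805 and 1.13 CPM in luminal knockout-labelled libraries 1 to 3, against 52.7, 85.4 and 42.6 CPM in luminal controls 1 to 3. The groups stood far apart, with 32 counts in all in the knockout-labelled libraries and 1910 in the controls. The log2 fold was -6.10 (SE 0.44, adjusted p = 5.908e-05 by edgeR). The call held on leaving out each luminal library in turn, with log2 folds between -6.39 and -5.77.

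Csn2, the beta-casein, had 0.598, 0 and 0.200 CPM in luminal knockout-labelled libraries, against 13.2, 15.6 and 6.64 CPM in luminal controls. No counts at all were found in knockout-labelled replicate 2, and the groups did not overlap. The log2 fold was -5.47 (SE 0.75, adjusted p = 0.005043 by edgeR) and stayed called without each library, with an adjusted p of at most 0.0307.

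Csn1s2a, the alpha-S2-like casein between them and Csn3, was much scarcer. It had 0.698, 0.716 and 0.801 CPM in luminal knockout-labelled libraries, against 2.81, 5.18 and 1.11 CPM in luminal controls. The groups did not overlap, but the lowest control came close to the knockout-labelled level, and the log2 fold of -2.02 (SE 0.61) did not pass the test (adjusted p = 0.1185 by edgeR). Without luminal control replicate 3, that lowest control, it passed with a log2 fold of -2.39 (adjusted p = 0.0480).

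Csn3, the kappa-casein, was the most abundant of the milk genes. It had 140.8, 146 and 458 CPM in luminal knockout-labelled libraries, against 705, 499 and 905 CPM in luminal controls. Replicate 3 of the knockout-labelled libraries stood well above the other two and just under the lowest control. The log2 fold was -1.50 (SE 0.62, adjusted p = 0.2342 by edgeR).

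Lalba encodes alpha-lactalbumin, a whey protein and the regulatory subunit of lactose synthase. It had 6.08, 4.12 and 6.87 CPM in luminal knockout-labelled libraries, against 10.2, 15.3 and 20.3 CPM in luminal controls. All 3 knockout-labelled values lay below all 3 controls, and the log2 fold of -1.42 (SE 0.38) missed the threshold (adjusted p = 0.07515 by edgeR), though DESeq2 and limma-voom called it. Wap, the whey acidic protein, had 4 counts in all in luminal knockout-labelled libraries and 7 in luminal controls, 6 of them in replicate 1, and was not tested.

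Btn1a1 encodes butyrophilin, and Xdh encodes xanthine oxidoreductase, and both proteins take part in enveloping the milk fat droplet. Btn1a1 had 135, 96.1 and 113 CPM in luminal knockout-labelled libraries, against 96.7, 178 and 75.5 CPM in luminal controls. The groups overlapped throughout, and the interval of the log2 fold ran from -0.87 to 0.81 (estimate -0.03, adjusted p = 0.9831 by edgeR). A change of the size seen for Csn1s1 lies outside that interval, and a change of up to its bounds does not.

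Xdh had 94.3, 75.7 and 87.3 CPM in luminal knockout-labelled libraries, against 136, 130.1 and 130.2 CPM in luminal controls. The controls were very close to each other and above every knockout-labelled value, and the log2 fold of -0.62 (SE 0.28) did not pass the test (adjusted p = 0.2886 by edgeR). Glycam1 had 2.69, 1.88 and 0.133 CPM in luminal knockout-labelled libraries, against 0.187, 1.20 and 5.23 CPM in luminal controls, so that libraries of 1 group differed as much as the groups did.

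Olah, the thioesterase that releases medium-chain fatty acids from fatty acid synthase, was the 1 gene of the 9 with a luminal fold above 0. It had 17.0, 11.5 and 4.74 CPM in luminal knockout-labelled libraries, against 1.96, 1.48 and 6.74 CPM in luminal controls. The groups overlapped through control replicate 3, and the log2 fold of 1.70 (SE 0.71) did not pass the test (adjusted p = 0.2446 by edgeR).

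Over the 9 genes tested, 8 luminal folds were below 0, with a median log2 fold of -1.42, beside 52.5% of all genes below 0 and a median of -0.03. Csn1s1, Csn1s2a, Csn2, Csn3, Lalba and Xdh were lower in every knockout-labelled library than in every control, 6 of 9 genes, and 0 of 9 were higher throughout, where 12.3% of all genes tested were lower and 13.1% higher in this way. Csn1s2a and Csn2 had enough counts to be tested only through the luminal controls. The filter on low counts thus favoured their lower values in knockout-labelled libraries, so these genes add no support to the counts of 6 and 8. The median of -1.42 includes both of them and is lowered by the same filter. Replicate numbers paired the luminal libraries, and with the replicate number as a block in the luminal libraries alone 5 of the 9 were called lower. These were Csn1s1 and Csn2 with Csn3 (log2 fold -1.68, adjusted p = 0.02953), Lalba (-1.39, adjusted p = 0.0345) and Xdh (-0.62, adjusted p = 0.02665). In that fit 1355 genes were called in all, 480 of them lower, against 199 and 40 in the luminal libraries alone without the block. With the block over all 12 libraries 1097 genes were called, 404 of them lower, and of the milk genes only Csn1s1 and Csn2 were, with an adjusted p by edgeR of 0.08556 for Csn3, 0.05317 for Lalba and 0.1063 for Xdh.

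Markers of other cells were also summed in the luminal libraries. The 7 vessel and endothelium markers summed to 65.3 to 75.4 CPM in luminal knockout-labelled libraries and 85.3 to 141 CPM in luminal controls. The 6 adipocyte markers summed to 36.8 to 56.9 CPM in luminal knockout-labelled libraries and 66.1 to 116 CPM in luminal controls. These sums did not overlap, but their most abundant genes did. Most of the vessel sum in knockout-labelled libraries was Vwf, with 54.1 to 55.3 CPM, against 49.3 to 77.3 CPM in controls. Fut7 (0.179 to 0.334 CPM, against 0 to 0.094 CPM) and Madcam1 (0.067 to 0.1 CPM, against 0 CPM) were higher in every knockout-labelled library. The adipocyte sum was nearly all Lipe (30.6 to 45.8 CPM, against 30.1 to 56.05 CPM) and Fabp4 (4.69 to 16.2 CPM, against 10.012 to 76.01 CPM). The ranges of the other lists overlapped. The luminal knockout-labelled libraries held 129.7 to 359 CPM of the 7 fibroblast markers, 1.88 to 3.19 CPM of the 6 B and T cell markers, 865 to 1638 CPM of the 10 basal markers and 18095 to 26104 CPM of the 12 luminal markers. The luminal controls held 72.6 to 389 CPM of the fibroblast markers, 2.43 to 4.12 CPM of the B and T cell markers, 1523 to 2002 CPM of the basal markers and 12461 to 20930 CPM of the luminal markers. Most of the basal marker sum was Igfbp5, with 555 to 900 CPM in luminal knockout-labelled libraries and 891 to 1876 CPM in luminal controls. The basal keratin Krt14 had 208, 393 and 386 CPM in luminal knockout-labelled libraries, against 56.9, 36.3 and 282 CPM in luminal controls, which overlapped. Trp63, a transcription factor of basal cells, was the 1 of the 10 basal markers called, with 27.5, 71.8 and 58.5 CPM in luminal knockout-labelled libraries, against 4.96, 2.035 and 15.7 CPM in luminal controls (log2 fold 2.80, adjusted p = 0.02529 by edgeR, up to 0.118 when leaving out 1 library, which ended the call in 4 of 6 cases). The part of these markers in the luminal milk gene values was not tested.

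**Figure D2:**
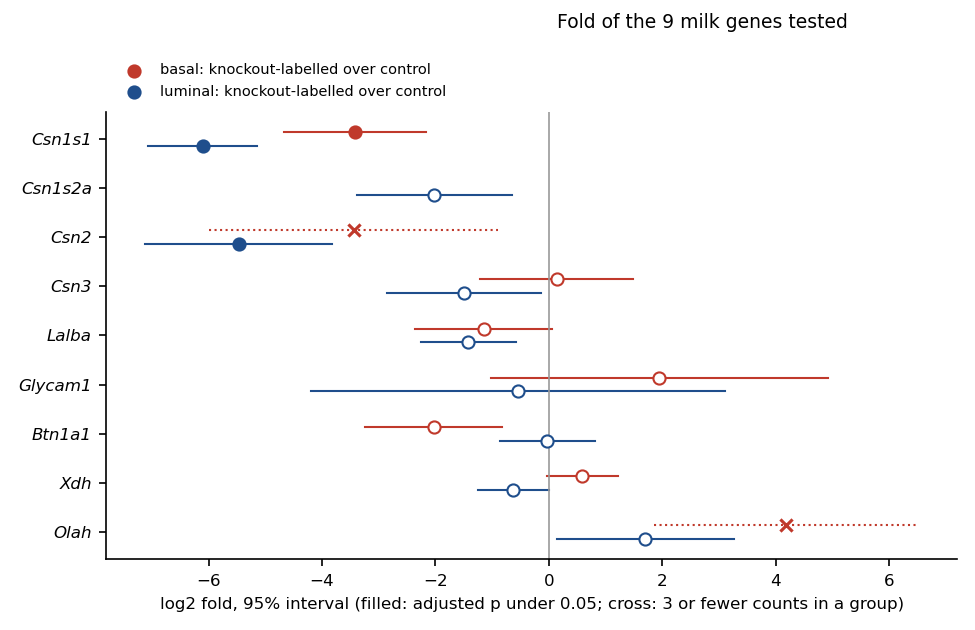
Log2 fold of knockout-labelled over control libraries for the 9 milk genes tested, in basal and in luminal cells, with the 95% interval of edgeR's fit. Filled points are called, and the dotted lines with a cross rest on 3 or fewer counts in a group. The luminal folds of Csn1s1 and Csn2 lie at -6.10 and -5.47, and that of Btn1a1 at -0.03.

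In basal cells the milk genes were scarce, apart from Glycam1, Xdh and Csn3, and Csn1s1 was again lower in the knockout-labelled libraries. It was the 1 gene of 9 called lower, and 0 were called higher, where 0.0604% of all genes tested were called lower and 0.611% higher. Csn1s1 had 0, 0.269 and 0.217 CPM in basal knockout-labelled libraries, against 2.07, 1.88 and 1.66 CPM in basal controls. The groups did not overlap, on 5 counts in all against 59, and the log2 fold was -3.41 (SE 0.57, adjusted p = 0.02548 by edgeR). Leaving out 1 basal library ended the call in 5 of 6 cases, all but control replicate 3 (adjusted p up to 0.102), as did limma-voom (adjusted p = 0.08916) and a fit of the basal libraries alone (adjusted p = 0.05654), while log2 folds stayed between -4.01 and -2.89.

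Csn2 had 0, 0 and 1 counts in basal knockout-labelled libraries, against 6, 5 and 4 counts in basal controls. The summed, library-scaled ratio was 0.0698 (95% counting interval 0.00166 to 0.454), and the gene did not pass the test (adjusted p = 0.2848 by edgeR). Csn1s2a had 0 counts in the basal knockout-labelled libraries and 1 in the basal controls, and Wap had 3 counts, all in knockout-labelled replicate 3, against 0, so no fold is given for either. Counting intervals cover counting error only.

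Csn3 was well measured in basal cells. It had 70.0, 16.7 and 24.6 CPM in basal knockout-labelled libraries, against 50.6, 15.4 and 34.8 CPM in basal controls. The groups overlapped throughout, and the interval of the log2 fold ran from -1.21 to 1.49 around an estimate of 0.14 (adjusted p = 0.9903 by edgeR). The sign turned without knockout-labelled replicate 1 (-0.72) and without control replicate 2 (-0.21).

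Lalba had 2, 4 and 3 counts in basal knockout-labelled libraries, against 10, 8 and 3 counts in basal controls, which did not pass the test (log2 fold -1.14, adjusted p = 0.6044 by edgeR). Btn1a1 had 0.709, 0.537 and 0.652 CPM in basal knockout-labelled libraries, against 1.56, 4.73 and 1.48 CPM in basal controls. The groups of Btn1a1 stood apart, and its log2 fold of -2.03 (SE 0.55) was not called by edgeR (adjusted p = 0.1462) but was by DESeq2 (adjusted p = 0.01435). Xdh had 105, 93.7 and 152 CPM in basal knockout-labelled libraries, against 70.8, 46.5 and 115 CPM in basal controls. Its basal groups overlapped, with a log2 fold of 0.59 (adjusted p = 0.6018 by edgeR).

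Olah was close to absent from basal controls. It had 31, 23 and 5 counts in basal knockout-labelled libraries, against 1, 0 and 2 counts in basal controls. The groups did not overlap, and the summed, library-scaled ratio was 20.6 (95% counting interval 6.71 to 103). It did not pass edgeR's test (adjusted p = 0.123), while DESeq2 called it (adjusted p = 0.007767). In all, Csn1s1, Csn2 and Btn1a1 were lower in every basal knockout-labelled library than in every control, where 4.21% of all genes were, and Olah was higher, where 8.15% were.

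Glycam1 encodes a secreted glycoprotein of milk that mouse lymph nodes also make, in high endothelial venules, where it carries ligands for L-selectin. It had 240.4, 198 and 0.217 CPM in basal knockout-labelled libraries, against 71.98, 15.2 and 26.4 CPM in basal controls. Knockout-labelled replicate 3 held 2 counts, whereas replicates 1 and 2 held the highest values of all 12 libraries. The log2 fold of 1.95 (SE 1.36, adjusted p = 0.863 by edgeR) therefore spanned a group that held both the highest and the lowest of the 6 basal libraries, and with limma-voom the sign turned (-0.23).

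Some vessel genes had a pattern like that of Glycam1 in the basal libraries, and most of the vessel list did not. Lyve1, a hyaluronan receptor of lymphatic endothelium, had the pattern most like that of Glycam1 over the 12 libraries (root mean square distance of centred log2 CPM 1.64, of 13241 genes searched). Its levels were 27.5, 19.1 and 1.85 CPM in basal knockout-labelled libraries, against 10.5, 3.75 and 3.88 CPM in basal controls. Madcam1, an adhesion molecule of mucosal and high endothelial venules, had 1.22, 1.07 and 0 CPM in basal knockout-labelled libraries, against 0.207, 0.268 and 0.092 CPM in basal controls. Chst4, the sulfotransferase of high endothelial venules, had 1.82, 0.627 and 0 CPM in basal knockout-labelled libraries, against 0, 0 and 0.369 CPM in basal controls. Madcam1 and Chst4 were at 0 in the knockout-labelled library where Glycam1 was almost absent. Chst4 was also at 0 in control replicate 1, where Glycam1 had 71.98 CPM, and both genes had too few counts to be tested. Lyve1 was low in that knockout-labelled library too, but it was picked for its likeness to Glycam1, so its value there adds no support. Fut7, a fucosyltransferase that helps make selectin ligands, had 2.13, 1.61 and 0.760 CPM in basal knockout-labelled libraries, against 2.70, 1.70 and 0.739 CPM in basal controls. Pecam1, a marker of endothelium in general, had 29.6, 24.3 and 29.98 CPM in basal knockout-labelled libraries and 19.7, 30.9 and 45.4 CPM in basal controls. Cdh5, the cadherin of endothelial junctions, had 15.9, 12.7 and 24.1 CPM in basal knockout-labelled libraries, against 8.19, 12.6 and 38.2 CPM in basal controls. Esam, an endothelial adhesion molecule, had 12.1, 11.8 and 17.8 CPM in basal knockout-labelled libraries, against 9.23, 11.6 and 16.3 CPM in basal controls. Vwf, the von Willebrand factor, had 8.41, 12.8 and 14.3 CPM in basal knockout-labelled libraries, against 16.6, 30.6 and 27.5 CPM in basal controls. These 4 were highest, among the knockout-labelled libraries, in the replicate where Glycam1 was lowest. The summed level of the 7 vessel and endothelium markers was 64.9 to 87.0 CPM in basal knockout-labelled libraries and 56.6 to 129 CPM in basal controls, and that of 6 B and T cell markers was 2.39 to 3.55 CPM in basal knockout-labelled libraries and 3.84 to 7.11 CPM in basal controls. The part of vessels or lymph node tissue in the Glycam1 values was not tested.

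**Figure D3:**
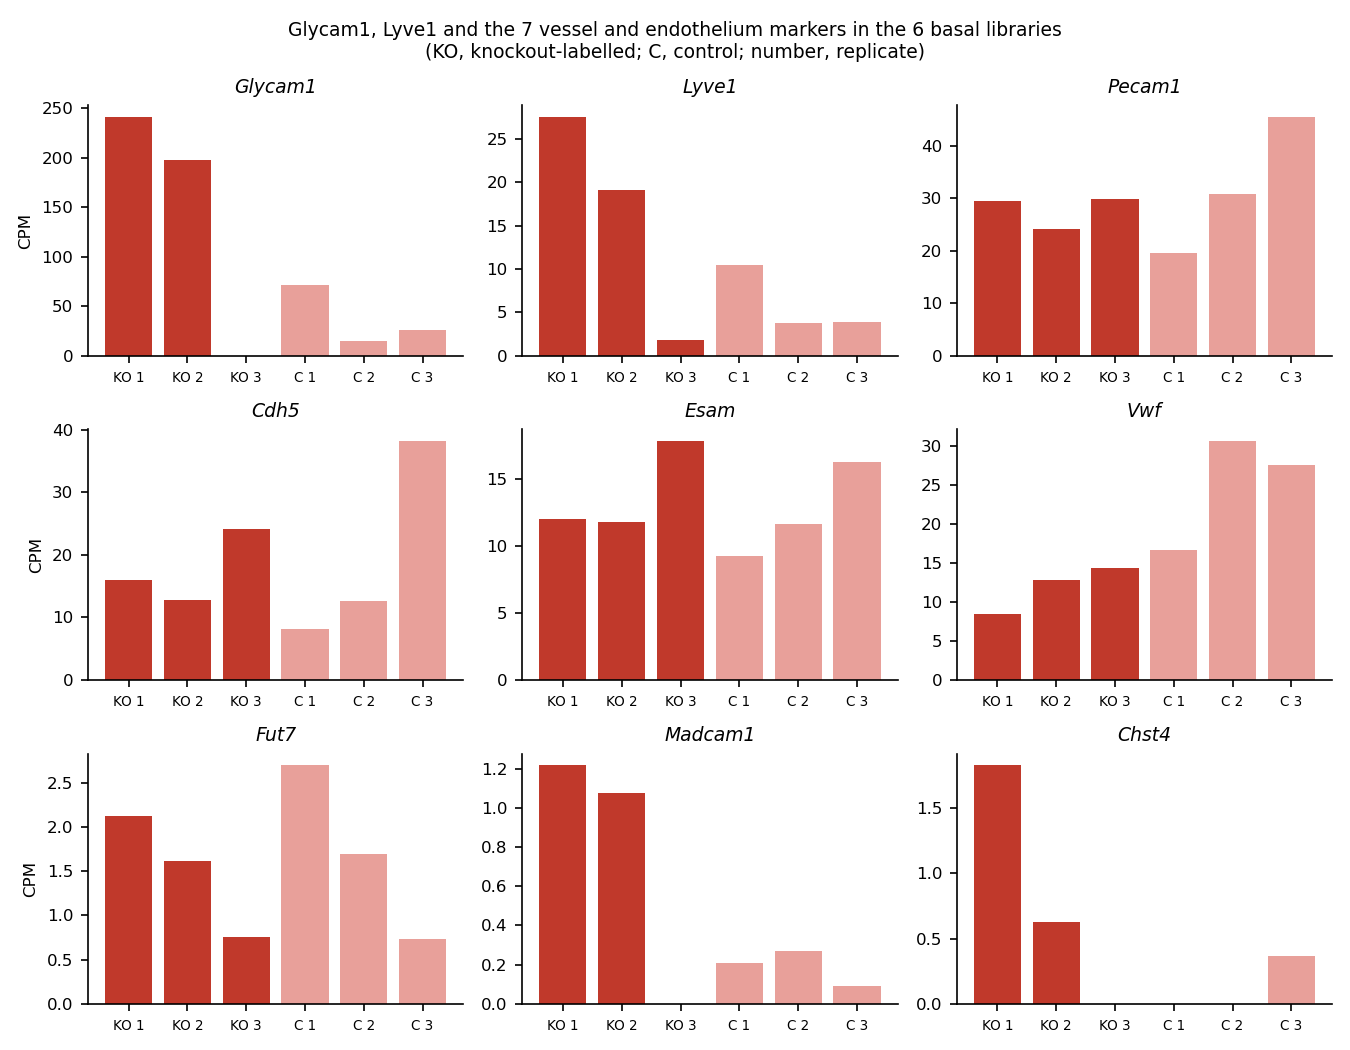
CPM of Glycam1, Lyve1 and the 7 vessel and endothelium markers in each of the 6 basal libraries, with 1 bar per library and a separate linear axis for each gene. Among the knockout-labelled libraries Lyve1, Madcam1, Chst4 and Fut7 are lowest in replicate 3, as Glycam1 is, while Pecam1, Cdh5, Esam and Vwf are highest there. Lyve1 was picked for its likeness to Glycam1 over these libraries.

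Markers of other cells differed between the basal groups. All 7 fibroblast markers were detected, and their summed level was 1641 to 2705 CPM in basal knockout-labelled libraries, against 448 to 574 CPM in basal controls. Of these 7, Pdgfra (log2 fold 2.41, adjusted p = 0.0138) and Dpp4 (2.85, adjusted p = 0.0395) were called higher by edgeR, each losing the call without at least 4 of the 6 basal libraries. The 12 luminal markers summed to 1817 to 3015 CPM in basal knockout-labelled libraries and 1307 to 1923 CPM in basal controls, ranges that overlapped, with a higher median in the knockout-labelled libraries (2685 CPM) than in the controls (1819 CPM). Of these 12, 1 was called by edgeR, with 6 at an unadjusted p under 0.05, and 2 each by DESeq2 and limma-voom. Foxa1 (29.1 to 46.1 CPM, against 6.52 to 13.9 CPM in controls) and Krt19 (149 to 262 CPM, against 45.6 to 83.5 CPM) did not overlap. Nor did Krt18 (234 to 366 CPM, against 129 to 194 CPM) and Cldn3 (14.6 to 24.8 CPM, against 7.57 to 11.3 CPM). All of these were higher in the knockout-labelled libraries, where 8.15% of all genes tested were higher without overlap. The means of Kit, Elf5 and Aldh1a3 were lower in the knockout-labelled libraries. The 6 adipocyte markers summed to 62.7 to 108 CPM in basal knockout-labelled libraries and 26.2 to 84.6 CPM in basal controls, again nearly all from Lipe and Fabp4. The part of all these markers in the basal milk gene values was not tested.

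Whether the knockout effect differed between the cell types was tested as an interaction. By edgeR's test 0 of 9 milk genes were called, where 0.275% of all genes were, with 3 at an unadjusted p under 0.05, and 0 were called by DESeq2 or by limma-voom. Csn1s1 had a luminal minus basal difference in log2 fold of -2.69 (95% interval -4.65 to -0.73, adjusted p = 0.2849). For Btn1a1 the luminal minus basal difference was 2.005 (interval 0.53 to 3.48, adjusted p = 0.2933), and for Xdh it was -1.22 (interval -2.10 to -0.34, adjusted p = 0.2836). These 3 intervals leave out 0, but none passed the adjustment over all genes.

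Most milk genes were luminal in both genotypes. Among knockout-labelled libraries, 6 of the 9 were higher in luminal than in basal cells (Csn1s1, Csn1s2a, Csn3, Lalba, Btn1a1 and Olah) and Glycam1 was lower, where 19.2% and 21.4% of all genes were called higher and lower. Olah lost this call without basal replicate 3 or luminal replicate 1 (adjusted p up to 0.0682), and Glycam1 lost it with limma-voom (adjusted p = 0.2869). With the replicate number as a block in the knockout-labelled libraries, where the numbers do not pair them, Csn3 lost it too (adjusted p = 0.05903 by edgeR). Among controls, 7 of the 9 were higher in luminal cells, these 6 and Csn2, and 0 were lower, where 16.3% and 16.8% of all genes were. Csn1s2a and Csn2 were tested only because of their counts in luminal controls, so the filter on low counts favoured their calls among controls. Replicate numbers paired the controls, and with the block in these libraries alone Glycam1 was also called lower (log2 fold -4.16, adjusted p = 0.03539 by edgeR) and Xdh was not called (adjusted p = 0.06519). With the block over all 12 libraries Xdh was called higher (0.85, adjusted p = 0.01178 by edgeR) and Glycam1 was not called (adjusted p = 0.1068), while DESeq2 without a block called Glycam1 (adjusted p = 0.03216).

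The basal level of each gene, as a share of its luminal level, was set beside the same share for luminal markers. In controls the basal mean was 3.11% of the luminal mean for Csn1s1, 4.06% for Csn2, 4.78% for Csn3, 4.43% for Lalba and 2.22% for Btn1a1. The same share had a median of 4.65% over 12 luminal markers, between 1.81% for Prlr and 36.1% for Epcam. The basal control level of these 5 milk genes was thus within the range of luminal markers. Olah (2.83%, on 3 basal counts) was also within it, and Csn1s2a (0.983%, on 1 basal count) was below it. Among knockout-labelled libraries the basal mean was 19.1% of the luminal mean for Csn1s1, 14.9% for Csn3, 17.3% for Olah, 5.19% for Lalba and 0.552% for Btn1a1. The marker median there was 6.91% (2.10% to 56.9%), so that Btn1a1 lay below every marker. These shares rest on 5 basal counts in all for Csn1s1, 9 for Lalba and 19 for Btn1a1. Csn2 had 1 basal count there and Csn1s2a 0, so no share is given for either. Glycam1 and Xdh stood outside this pattern. The basal mean of Xdh was 136% of the luminal mean in knockout-labelled libraries and 58.5% in controls, and Glycam1 was lower in luminal than in basal knockout-labelled libraries (log2 fold -6.60, adjusted p = 0.01066 by edgeR), with a log2 fold of -4.11 in controls (adjusted p = 0.06512, not called).

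Levels of different genes were compared per length, as RPKM, which divides CPM by the gene length in kilobases that the deposited table gives. In luminal knockout-labelled libraries Csn3 led with 155 ± 114 RPKM (SD, n = 3), followed by Btn1a1 with 33.2 ± 5.70, Xdh with 18.7 ± 2.05, Lalba with 7.76 ± 1.94 and Olah with 7.32 ± 4.05. Csn1s1 was eighth of the 10 genes there, with 0.598 ± 0.191 RPKM, and Csn2 ninth, with 0.238 ± 0.272. In luminal controls Csn3 led with 440.2 ± 127 RPKM, followed by Csn1s1 with 42.5 ± 15.8, Btn1a1 with 33.8 ± 15.7, Xdh with 28.8 ± 0.79, Lalba with 20.8 ± 6.90 and Csn2 with 10.6 ± 4.15. From Csn1s1 down, each gene of the control order overlapped in its libraries with the next, except that Xdh (28.4 to 29.7 RPKM) lay above Lalba (13.9 to 27.7 RPKM), and Csn3 stood clear of all of them. Csn1s1 was thus second in luminal controls and among the last in luminal knockout-labelled libraries, while Btn1a1 and Xdh kept neighbouring places. In basal cells Glycam1 had the highest mean, with 234 ± 205 RPKM in knockout-labelled libraries and 60.6 ± 48.1 RPKM in controls.

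The likeness of the genes over the 12 libraries was described by the root mean square distance of their centred log2 CPM. Csn1s1 and Csn2 were each other's nearest gene among the 13241 compared, at 0.87. The next nearest to both were Tnfsf11, the RANK ligand, at 1.38 from Csn1s1 and 1.05 from Csn2, and the secreted Wnt agonist Rspo1, at 1.40 and 0.92. Tnfsf11 had 1.10, 0.626 and 0.400 CPM in luminal knockout-labelled libraries, against 29.3, 36.9 and 13.6 CPM in luminal controls. Rspo1 had 18.7, 5.55 and 5.14 CPM in luminal knockout-labelled libraries, against 110.1, 246 and 22.6 CPM in luminal controls. For both, every knockout-labelled luminal library was below every luminal control, where 12.3% of all genes tested were lower in this way. Tnfsf11 and Rspo1 were picked for their likeness to Csn1s1 and Csn2 over these libraries. That choice favoured such a separation, so it adds no support. The other two caseins lay nearer to Lalba than to this pair, at 0.82 for Csn1s2a and 0.86 for Csn3. Btn1a1 was nearest to the epithelial mucin Muc20 (0.64), and Xdh, which varied little, to Frat1 (0.21).

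The 4 caseins lie within 266 kb on chromosome 5 (87666208 to 87932550), and 21 other genes of the count table lie within 500 kb of that span. Only 5 of these 21 were tested, the others having too few counts. Smr3a, a salivary gland transcript that starts 59.0 kb after the end of Csn3, was called lower in both cell types. It had 19.1, 30.8 and 6.41 CPM in luminal knockout-labelled libraries, against 22927, 2247 and 14683 CPM in luminal controls (log2 fold -9.47, adjusted p = 0.003206 by edgeR). In basal cells it had 12.4, 4.21 and 5.43 CPM in knockout-labelled libraries, against 161, 311 and 834 CPM in controls (log2 fold -5.89, adjusted p = 0.03117 by edgeR, up to 0.130 when leaving out 1 library). In both cell types its fold was larger than that of any casein called.

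Of the other 4 neighbours tested, Prol1, another salivary transcript, was the 1 called, higher in luminal knockout-labelled libraries, with 116, 76.6 and 207 CPM against 13.8, 2.50 and 16.5 CPM in luminal controls (log2 fold 3.61, adjusted p = 0.03104 by edgeR, up to 0.106 when leaving out 1 library). Odam, 1700066N21Rik and Amtn were called in neither cell type. Within the casein span itself the fall was uneven, with log2 folds in luminal cells of -6.10 for Csn1s1, -5.47 for Csn2, -2.02 for Csn1s2a and -1.50 for Csn3, in the order of their positions, only those of Csn1s1 and Csn2 being called. In the GENCODE annotation 1700066N21Rik runs antisense across Csn3 but shares 0 exon bases with it. None of the 10 milk genes shared exon bases with another gene there.

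**Figure D4:**
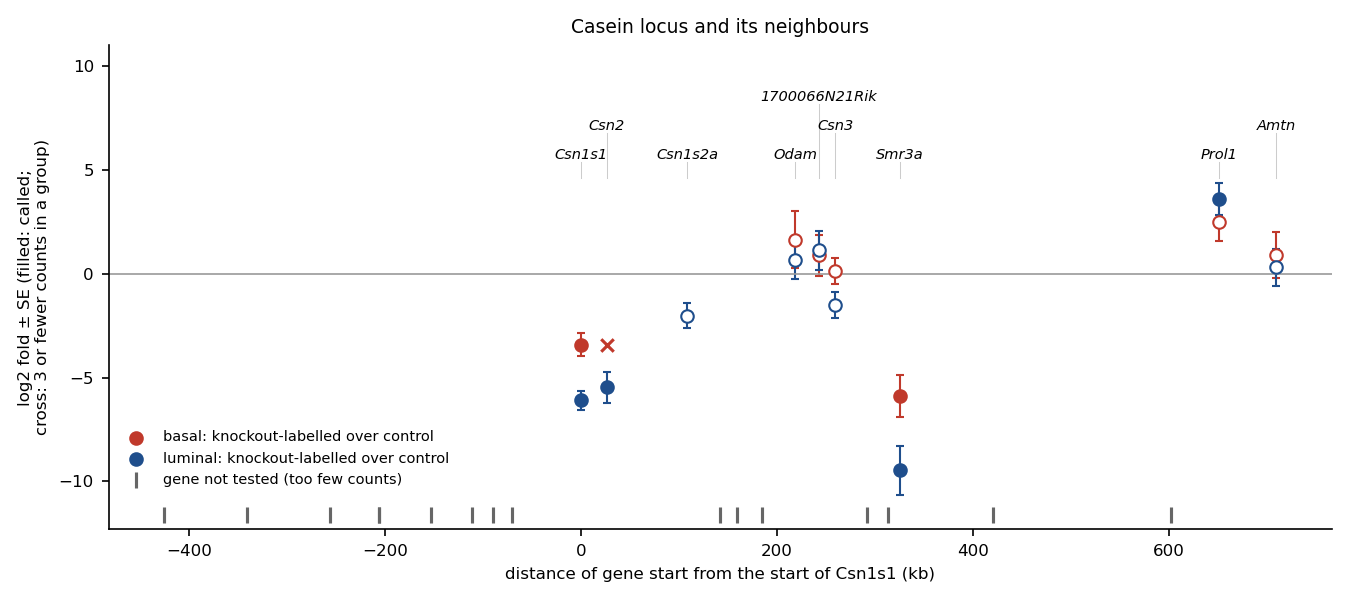
Log2 fold with its standard error of each gene tested in the casein locus and within 500 kb of it, by distance of the gene start from the start of Csn1s1 in kb. Filled points are called, crosses rest on 3 or fewer counts in a group and ticks mark genes with too few counts. Luminal folds run from -6.10 at Csn1s1 to -1.50 at Csn3, and Smr3a lies at -9.47.

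Lists of genes around the milk proteins were counted in the same way, beside shares over all genes tested of 2.21% higher and 0.819% lower for luminal cells, 0.611% higher and 0.0604% lower for basal cells. Of 13 other secreted milk proteins tested, 1 was called higher and 0 lower in luminal cells, with a median log2 fold of -0.21. There were 6 at an unadjusted p under 0.05 by edgeR, while DESeq2 called 4 and limma-voom 0. The gene called by edgeR was Pthlh, the parathyroid hormone-related peptide secreted into milk, with 2.39, 6.18 and 11.5 CPM in luminal knockout-labelled libraries, against 1.31, 1.02 and 1.21 CPM in luminal controls (log2 fold 2.51, adjusted p = 0.02735 by edgeR, up to 0.123 when leaving out 1 library). In basal cells 1 of the 13 was called higher and 0 lower, with a median of 0.49. It was Trf, the iron carrier transferrin, with 3838, 3550.4 and 3510.5 CPM in basal knockout-labelled libraries, against 651, 705 and 305 CPM in basal controls (log2 fold 2.71, adjusted p = 0.01348 by edgeR, 0.0679 without basal control replicate 1).

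Among 20 genes of milk fat and fatty acid synthesis tested, 0 were called in luminal cells by edgeR, with 4 at an unadjusted p under 0.05 and 1 called each by DESeq2 and limma-voom, and the median log2 fold was -0.10. The lowest p was that of Thrsp, a regulator of lipogenesis, with 0.199, 0.358 and 0.400 CPM in luminal knockout-labelled libraries, against 2.53, 2.04 and 2.31 CPM in luminal controls (log2 fold -2.77, adjusted p = 0.06494 by edgeR). In basal cells 1 of the 20 was called higher and 0 lower, with a median of 0.14. It was Lpl, the lipase that releases fatty acids from lipoproteins, with 45.4, 62.7 and 17.7 CPM in basal knockout-labelled libraries, against 3.53, 2.50 and 5.27 CPM in basal controls (log2 fold 3.48, adjusted p = 0.0137 by edgeR, up to 0.102 when leaving out 1 library). The summed fibroblast markers were also higher in these libraries, as given above.

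For lactose synthesis, 0 of 9 genes tested were called in luminal cells by edgeR, with 3 at an unadjusted p under 0.05, 1 called by DESeq2 and 0 by limma-voom. Their median log2 fold was 0.34 in luminal cells, and Slc35a2, the UDP-galactose transporter of the Golgi, had the lowest p (log2 fold 0.65, adjusted p = 0.1098 by edgeR). In basal cells 0 of the 9 were called by edgeR, with 1 at an unadjusted p under 0.05 and 0 called by DESeq2 or limma-voom, and the median was 0.37.

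Of 22 regulators of milk genes tested, 1 was called higher and 0 lower in luminal cells, with a median log2 fold of -0.04. There were 7 at an unadjusted p under 0.05 by edgeR, while DESeq2 called 5 and limma-voom 1. Ghr, the growth hormone receptor, had 76.9, 134 and 155 CPM in luminal knockout-labelled libraries, against 42.3, 31.6 and 32.0 CPM in luminal controls (log2 fold 1.79, adjusted p = 0.004363 by edgeR). Every knockout-labelled library was above every control for Ghr, and it stayed called without each luminal library. In basal cells 0 of the 22 were called by edgeR, with 4 at an unadjusted p under 0.05 and 0 called by DESeq2 or limma-voom, and the median was 0.12. The lowest p there was that of Prlr, the prolactin receptor, with 25.7, 69.5 and 40.5 CPM in basal knockout-labelled libraries, against 26.9, 12.5 and 17.1 CPM in basal controls (log2 fold 1.27, adjusted p = 0.2324 by edgeR). In luminal cells Prlr had 1644, 2748 and 2067 CPM in knockout-labelled libraries, against 1095, 745 and 1286 CPM in controls, and was not called (log2 fold 1.05, adjusted p = 0.1851 by edgeR). The medians over all genes tested were -0.03 in luminal and -0.01 in basal cells.

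**Figure D5:**
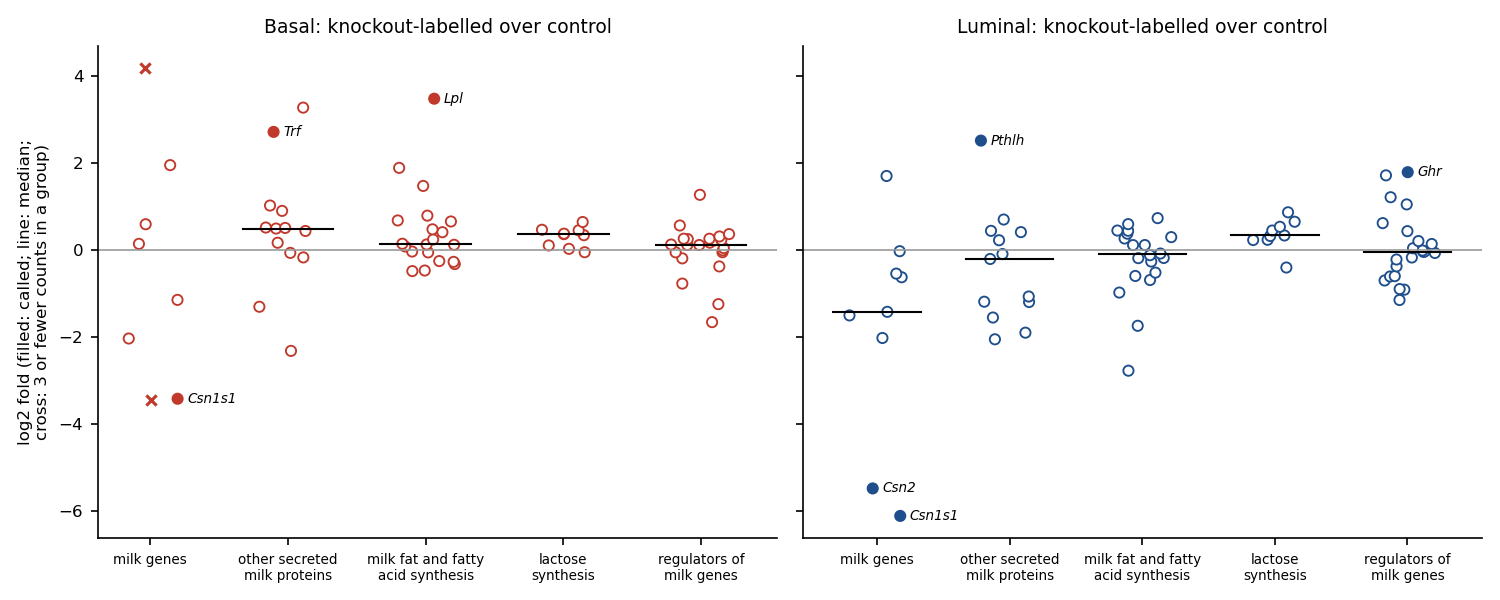
Log2 fold of knockout-labelled over control libraries for the milk genes and 4 lists of related genes, in basal (left) and luminal cells (right), with 1 point per gene, filled where called, and a line at the list's median. In luminal cells the median is -1.42 for the milk genes and between -0.21 and 0.34 for the other lists. The milk gene median includes Csn1s2a and Csn2, whose folds below 0 were favoured by the filter on low counts. Crosses rest on 3 or fewer counts in a group, and no median is drawn for the basal milk genes for that reason.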

How the data were processed

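RNA of 12 libraries of basal and luminal mouse mammary epithelial cells was measured, 3 in each of 4 groups. The authors deposited whole-number read counts per gene for 27179 genes, with no normalization, and the 12 library tables differed from the series table in 0 values. Per the submitters' processing notes, the tools were CASAVA 1.8.2 and featureCounts and the build was mm10; which aligner and gene annotation were used is not given in the sources used here. TruSeq RNA v2 libraries were made from total RNA, per the labels' protocols.

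The test was edgeR's robust quasi-likelihood F test (version 4.0.16, R 4.3.3) after TMM scaling and filterByExpr (minimum count 10), in a model of 4 group means over all 12 libraries. A gene is called where its p, adjusted by Benjamini-Hochberg over the 14903 genes tested, is under 0.05. CPM use TMM-scaled library sizes, and RPKM also use the deposited gene lengths. Where a group sums to 3 counts or fewer, a gene is given as counts, or as the ratio of summed counts with an exact 95% interval. The fit was tested on simulated data.

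The 10 milk genes, the lists, the marker genes and the motifs were chosen with earlier results of these data known. All 10 are given. From each list of related genes, up to 3 called genes with the largest fold are named, or else the 1 with the lowest p. Tnfsf11, Rspo1, Lyve1, Muc20 and Frat1 come from the rule for the 3 most alike genes with an average log2 CPM of at least 1. All 7 vessel markers were named after their values were seen.

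Correlations of deviations from the group means between libraries of the same replicate number were 0.36, 0.30 and 0.53 for luminal knockout-labelled and control libraries, and 0.31, 0.42 and 0.47 for luminal and basal controls, so the numbers were taken to pair those. No replicates agreed within sampling noise. Alternatives were other scalings and filters, DESeq2 1.42.0, limma-voom (limma 3.58.1), no robust shrinkage, only the groups compared, the replicate block, the tests without salivary genes and Rn45s, and leaving out each library.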

Additional observations from a re-analysis of the deposited data

How the results depend on the processing

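Of the alternatives run, 692 folds of single milk genes kept their direction and side of the threshold, 17 passed it newly, 12 lost it and 12 turned direction, all of the last being small or widely spread. Scaling by library size alone moved the median of all genes by 0.113 (log2) for luminal against basal cells in knockouts and by less than 0.1 elsewhere. Low counts limit Csn1s1, Csn2, Csn1s2a, Wap and Olah in basal cells. The causes of the changes below were not tested, except that a stricter filter, of at least 10 CPM in 3 libraries, removes scarce genes from the test.

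Genes called numbered 100 in basal cells, but 59 by library size alone, 62 with the stricter filter, 417 by DESeq2, 151 with only the groups compared and 17 to 122 without 1 library. With the replicate block they were 236 in all groups and 16 in the basal libraries alone, where the numbers (correlations -0.09, 0.36 and 0.13) do not pair the libraries. In luminal cells 451 became 295 with the stricter filter, 1089 by DESeq2, 199 with only the groups compared, 1097 with the replicate block in all groups, 1355 with it in the luminal libraries alone and 127 to 589 without 1 library. The interaction's 41 became 354 by DESeq2, 22 by limma-voom, 106 with the replicate block and 10 to 86 without 1 library.

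Milk genes called in basal cells numbered 1, but 3 by DESeq2, 0 by limma-voom, 0 with only the groups compared, with or without the replicate block, and 0 to 1 without 1 library. In luminal cells 2 became 1 with the stricter filter, which left out Csn2, 5 with the replicate block in the luminal libraries alone, stayed at 2 with it in all groups and was 2 to 3 without 1 library. For luminal against basal cells the 7 called became 4 in knockouts and 3 in controls with the stricter filter.

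Directions turned for Glycam1 in basal cells by limma-voom (-0.233), for Csn3 in basal cells (-0.719 to 0.538 without 1 library, -0.205 without control replicate 2), and for Btn1a1 in luminal cells (0.058 by limma-voom, 0.107 and 0.073 with the replicate block, -0.235 to 0.411 without 1 library, 0.085 without knockout-labelled replicate 2). They also turned for Glycam1 in luminal cells (-1.199 to 1.107 without 1 library, 0.063 without knockout-labelled replicate 3) and for the Lalba interaction (-0.668 to 0.096 without 1 library, 0.014 without luminal control replicate 3).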

Other observations

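The remaining nearest genes over the 12 libraries, by the same root mean square distance, were Ogfrl1 (0.38), Slc5a8 (0.50) and Muc1 (0.51) for Csn1s2a, Podxl (0.67), Bex4 (0.69) and Abcc8 (0.74) for Csn3, and Shank2 (0.47), Kcnd2 (0.48) and Apof (0.53) for Lalba. For Olah they were Plac8 (0.52), Naip2 (0.66) and Pik3c2g (0.75), and for Btn1a1 Atp6v1b1 (0.75) and the luminal progenitor receptor Kit (0.77) followed Muc20. For Glycam1 Enpp2 (1.98) and Adam12 (2.02) followed Lyve1, and for Xdh Dolk (0.25) and Ppp1r13b (0.26) followed Frat1. No p is given for these genes, since the 12 points share 4 groups.

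The summed level of the 10 milk genes was 337 to 672 CPM in luminal knockout-labelled libraries and 931 to 1193 CPM in luminal controls. In basal cells it was 179 to 419 CPM in knockout-labelled libraries and 84.9 to 199 CPM in controls.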
